A study of Mus musculus with 4 samples.

Results

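Cytoplasmic ribosomal protein genes code for the proteins of the 40S and 60S subunits of the ribosome. They were taken from the table by mouse symbol, as every gene named Rps or Rpl followed by a number, with Rplp0, Rplp1, Rplp2, Rpsa and Fau. S6 kinase genes (symbols starting in Rps6k) and symbols ending in bp1 were left out. This gave 101 of the 21957 genes measured. Of these, 78 were core genes (32 of the 40S and 46 of the 60S subunit), 9 were paralogs of a core gene and 14 were entries with a pseudogene symbol (-ps), of which GENCODE vM21 types 9 as processed pseudogenes and 5 as protein coding.

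All 4 libraries came from oocytes of females of the B6D2F1 strain (C57BL/6 x DBA) that were 6 to 8 weeks old. By the paper's methods the females had been injected with pregnant mare serum gonadotropin, and hyaluronidase was used to remove the cumulus cells. GV oocytes, arrested in the first meiotic prophase, were taken at 0 h without treatment. MII oocytes had been cultured for 12 h without drug, and TubA10 and TubA20 oocytes for 12 h with Tubastatin A (TubA), a small molecule made to inhibit the deacetylase HDAC6, at 10 and 20 μM by the sample titles. Another label, the treatment entry, states 20 μM for TubA10 and 11 μM for TubA20, and the title of the MII sample speaks of an embryo, whereas the methods describe oocytes with a polar body. Each library was made from a pool of oocytes, so the values describe pools, and oocytes of different meiotic stage within the treated pools cannot be told apart.

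Each ribosome holds, in general, a single copy of most of these proteins, and the genes for them are transcribed and translated as a group in most cells. Their mRNAs start with a C followed by a run of pyrimidines, the 5′ TOP motif, through which mTORC1 and LARP1 govern translation. Growing mouse oocytes store such mRNAs, and in the absence of transcription after growth, stored mRNAs are translated, shortened at their poly(A) tail or lost during meiotic maturation.

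Values were FPKM, fragments scaled to transcript length and to the mapped fragments of the library, as the authors deposited them. There was 1 library per condition, so differences have no replicate spread behind them and no p-value. Changes are log2 of the ratio of FPKM + 1, and a change past 2-fold is a description of 2 libraries. The RNA was selected by its poly(A) tail, so less mRNA and a shorter tail cannot be told apart, nor, in these pools, can a smaller share of oocytes that hold an mRNA and less of it per oocyte. Fragment counts are not used here. The step between low FPKM values placed TubA10 and MII at about 1.68 and 1.63 times the depth of GV and TubA20 at 0.896 times. These are rough estimates of mapped depth (29.0%, 21.8% and 78.8% of the genes near the step lay on it). The totals of sequenced reads in the study's text place TubA20 above GV, so which of these libraries was deeper is uncertain. All 13 oocyte markers were above 1 FPKM in every library (summed FPKM of 16334 to 23750), while 12 cumulus and granulosa markers summed to between 20.1 and 25.8 and 8 blood markers to at most 0.297. Of the cumulus and granulosa list, Foxl2 was listed at 0 in all 4 libraries (as were 4 globin genes of the blood list), Tnfaip6 and Ptx3 reached 1.57 and 1.19 FPKM in TubA20, and Inha stood at 7.50 FPKM in GV and at 0.239 to 0.314 in the other 3. Nr5a2 (9.23 FPKM in GV, 10.1 in MII, 11.5 in TubA10 and 9.12 in TubA20) did not share the fall of Inha. Cyp19a1 had 6.14, 8.60, 7.42 and 10.3 FPKM in the same order and was higher in every cultured library than in GV. The part of these markers in the results was not tested.

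Ribosomal protein mRNAs made up a smaller share of the library after culture. The 101 genes held 8.06% of all FPKM in GV, 3.20% in MII, 3.86% in TubA10 and 2.63% in TubA20. The median FPKM of the 78 core genes was 566 in GV, 136 in MII, 172 in TubA10 and 88.0 in TubA20. All 78 core genes were above 0 in every library, and the number at 100 FPKM or more was 74 in GV, 51 in MII, 59 in TubA10 and 32 in TubA20. GV was the highest library for 70 core genes, TubA10 for 5 and TubA20 for 3. TubA20 was the lowest library for 65, MII for 10 and TubA10 for 3. The order GV, TubA10, MII, TubA20 from high to low was seen in 52 of the 78.

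The 40S and 60S genes had similar medians in each library. The 32 core 40S genes had medians of 598 FPKM in GV, 143 in MII, 170 in TubA10 and 79.5 in TubA20. The 46 core 60S genes had medians of 513, 135, 172 and 88.5 FPKM in the same order. The summed FPKM of the core 60S genes was 1.34 times that of the core 40S genes in GV, 1.68 times in MII, 1.72 times in TubA10 and 1.80 times in TubA20. With paralogs and -ps entries included the ratio was 1.33 in GV, 1.52 in MII, 1.59 in TubA10 and 1.45 in TubA20. In that sum the paralog Rps27l alone held 1355 of the 6752 FPKM of the 40S genes in TubA20. The sums are weighted towards a few abundant genes, since Rpl41, which codes for the shortest ribosomal protein, stood at 2391 FPKM in GV and Rps20 at 52.7.

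**Figure D1:**
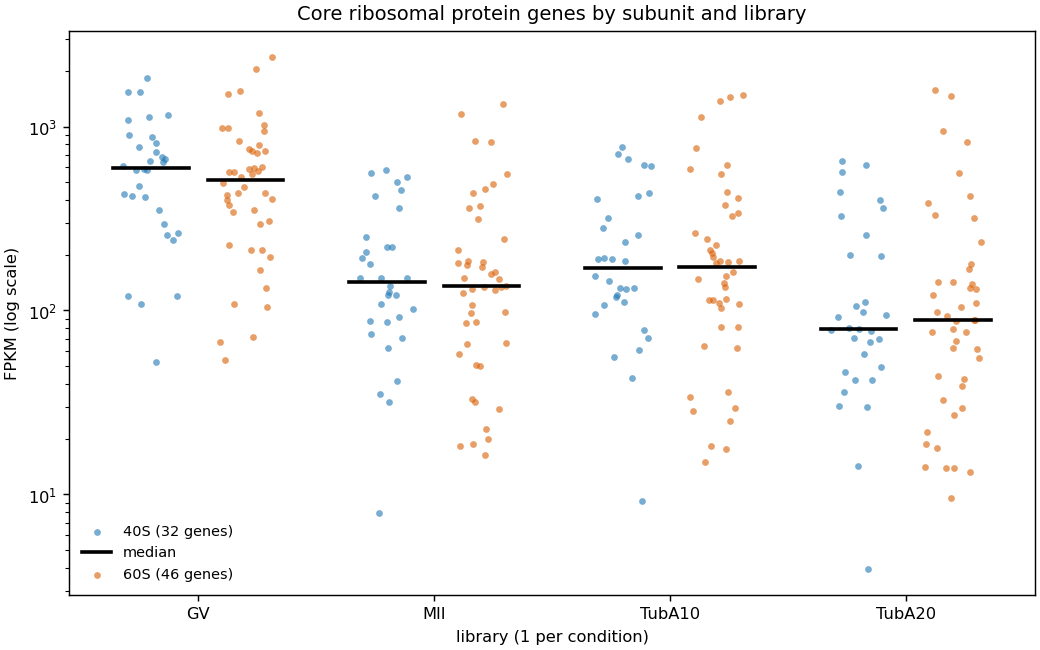
FPKM on a log scale of the 32 core 40S genes (blue) and the 46 core 60S genes (orange) in the 4 libraries. Each point is a gene and the black bar is the median, which lies at 598 and 513 FPKM in GV and at 79.5 and 88.5 FPKM in TubA20, while a few genes of each subunit remain above 500 FPKM in every library.

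Untreated maturation from GV to MII was compared first. Of the 101 genes, 70 were more than 2-fold lower in MII and none was more than 2-fold higher, against 8.34% lower and 3.05% higher among all genes. Among the genes that reached 10 FPKM in either library, 22.2% were more than 2-fold lower, and their median log2 change was 0.12. Of these 6156 genes, 578 were more than 2-fold higher. All 78 core genes were lower in MII than in GV as deposited (1 and 5 were higher with equal FPKM sums and equal Gapdh), 64 of them (82.1%) by more than 2-fold, with a median log2 change of −1.87. The medians were −1.97 for the core 40S genes (27 of 32 past 2-fold) and −1.84 for the core 60S genes (37 of 46).

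Rpl24, a 60S protein that forms part of a bridge between the subunits, stood at 434 FPKM in GV and 50.2 in MII, the largest difference of this comparison (log2 change −3.09). The paralog Rpl36al followed with 393 FPKM in GV and 49.5 in MII (−2.97). Rpl19, another bridge protein, had 1017 and 135 FPKM (−2.91), and Rpl23a, which lies at the exit of the nascent chain tunnel, 494 and 65.5 FPKM (−2.90). By the plain ratio of FPKM these 4 were at least 7.54-fold lower in MII. At the other end, Rps27l was higher in MII (790 against 650 FPKM, 0.28), and Rps28, Rpl22, Rplp2 and Rps2 lay within −0.07 to −0.20 of GV on the log2 scale. With the FPKM sums or Gapdh made equal, Rps28 was slightly higher in MII than in GV (0.06 and 0.16).

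TubA20 against GV gave the lowest values of the family. Of the 101 genes, 72 were more than 2-fold lower and 1, Rps27l, was more than 2-fold higher, against 11.7% lower and 7.61% higher among all genes. The share lower among genes that reached 10 FPKM was 27.7%, and their median log2 change was 0.27. Of these 6283 genes, 1428 were more than 2-fold higher, so a rise like that of Rps27l was common among them. Among the core genes 64 of 78 were past 2-fold lower, with a median of −2.39. The core 40S genes had a median of −2.46 (28 of 32 past 2-fold) and the core 60S genes one of −2.39 (36 of 46). The subunits overlapped over most of their range, from −3.84 to 0.45 for the 40S and from −4.01 to −0.04 for the 60S genes. The 3 core genes higher in TubA20 than in GV, Rps28 and Rps15a among them, all belonged to the 40S subunit, although 1 of the 3 was lower under 2 of 4 scalings.

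Rpl19 had 1017 FPKM in GV, 135 in MII, 140 in TubA10 and 62.2 in TubA20, a log2 change of −4.01 in TubA20. Rps27a, which codes for ubiquitin fused to a 40S protein, had 611, 86.1, 118 and 41.8 FPKM in the same order (−3.84). Rpl6 of the 60S subunit had 212, 33.1, 29.4 and 14.2 FPKM (−3.82). In all 3 genes the value in GV stood apart from the 3 cultured libraries, and TubA20 was the lowest. Rpl36al (−3.72) and Rpl24 (−3.69) completed the 5 largest differences.

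Among the members that the study had singled out, 9 were 40S and 4 were 60S genes. Rps15, which lies near the decoding site, had 645 FPKM in GV, 102 in MII, 108 in TubA10 and 49.4 in TubA20 (−3.68 in TubA20). Rps13 had 1091, 222, 403 and 91.7 FPKM (−3.56), so that TubA10 lay between GV and MII. Rps20, a 40S protein ubiquitinated on stalled ribosomes, had 52.7, 7.95, 9.27 and 3.93 FPKM (−3.44) and was the lowest core gene in all 4 libraries. Rps6, the S6 kinase substrate, had 256, 62.7, 78.5 and 36.2 FPKM (−2.79). Rps18 (−3.27), Rps19 (−3.03) and Rps10 (−2.37) were lower as well. Of the 60S genes, Rpl3 (−3.16), a protein near the peptidyl transferase centre, and Rpl23 (−2.41) were lower, and Rpl5 and Rpl11 were less so. These 13 genes had a median of −3.16 in TubA20 against GV, with 12 past 2-fold lower, against 11.7% of all genes and 27.7% of those that reached 10 FPKM. They were picked on these same samples, so their direction is no independent evidence.

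**Figure D2:**
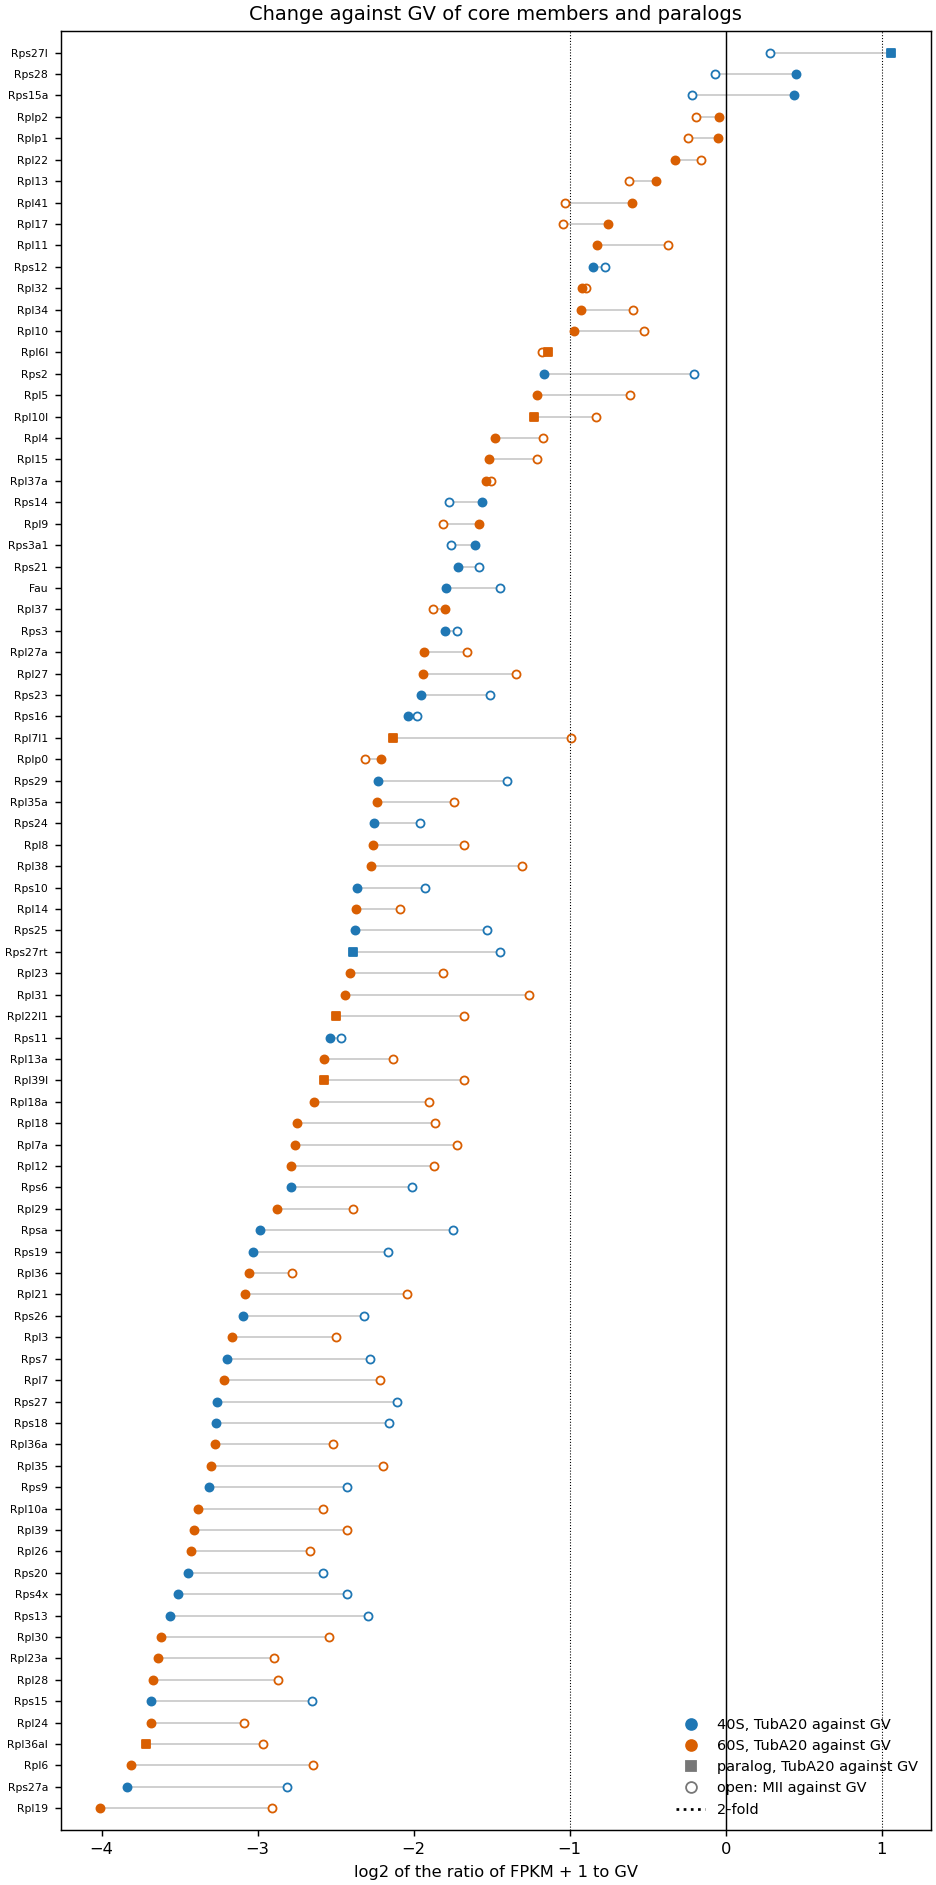
Log2 of the ratio of FPKM + 1 to GV for 75 core genes and 8 paralogs (Rpl3l, listed at 0, and 3 core genes not shown here are left out), ranked by TubA20. Filled marks are TubA20 against GV (circles for core genes, squares for paralogs), open circles are MII against GV, colours are the subunits and dotted lines mark 2-fold; the order runs from −4.01 for Rpl19 to 1.06 for Rps27l.

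Of the core genes, 14 were not more than 2-fold lower in TubA20 than in GV (4 of the 40S, 10 of the 60S). Rps2 (−1.17) and Rpl5 (−1.21) were the nearest inside the threshold, and Rpl10 (−0.97) and Rpl34 (−0.93) the nearest outside it. This group of 14 was formed from the values themselves and is given as a description. It held 24.1% of the summed core FPKM in GV, 45.0% in MII, 44.9% in TubA10 and 58.1% in TubA20. The remaining 64 core genes went from a summed 37128 FPKM in GV to 9506 in MII, 12033 in TubA10 and 6324 in TubA20. With the median change of expressed genes set to 0, which lowers MII by 0.14, TubA10 by 0.16 and TubA20 by 0.23 log2 relative to GV, 69 core genes were past 2-fold lower, Rpl10, Rpl11 and Rpl34 among them.

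Rps28, a small 40S protein, had 265 FPKM in GV, 252 in MII, 257 in TubA10 and 363 in TubA20 (0.45 in TubA20 against GV). Rps15a, another 40S protein, had 417, 359, 419 and 564 FPKM (0.43). Both were highest in TubA20, and their other 3 libraries lay close together. Both remained higher in TubA20 than in GV under all 4 scalings (0.23 to 0.52 and 0.21 to 0.51). Rpl13 (569 FPKM in GV, 369 in MII, 407 in TubA10 and 418 in TubA20) and Rpl41 (2391, 1167, 1444 and 1573) of the 60S were lower in all 3 cultured libraries, by −0.44 and −0.60 in TubA20. Rpl17 had 942, 456, 439 and 557 FPKM (−0.76). Rpl13 and Rpl17 were named after their values were seen.

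In 5 other genes of the 14 the TubA10 library lay close to GV and TubA20 was well below it. Rpl34 had 732 FPKM in GV, 485 in MII, 764 in TubA10 and 385 in TubA20. Rpl32 had 1553, 836, 1489 and 819 FPKM, and Rps12 had 723, 421, 615 and 400 FPKM (both named after their values were seen). Together with Rpl10 and Rpl11 they differed from GV by −0.23 to 0.06 in TubA10 and by −0.97 to −0.83 in TubA20 on the log2 scale. Rpl34, Rpl10 and Rpl11 had their MII value between those of TubA10 and TubA20, and in Rpl32 and Rps12 MII and TubA20 were nearly equal.

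TubA10 against GV showed the same family at a smaller distance. Of the 101 genes, 67 were more than 2-fold lower and none more than 2-fold higher, against 5.6% and 0.742% among all genes and 15.5% lower among genes that reached 10 FPKM. Of these 6035 genes at 10 FPKM, 111 were more than 2-fold higher. The core genes had a median log2 change of −1.61, with 60 of 78 past 2-fold lower and 6 higher (2 to 12 higher over the 4 scalings). The median was −1.58 for the core 40S and −1.61 for the core 60S genes. Rpl19 (140 FPKM in TubA10 against 1017 in GV, −2.85), Rpl6 (−2.81), Rpl24 (−2.78) and Rpl28 (−2.64) were among the 5 lowest against GV. Rps2, a 40S protein at the mRNA entry channel, was higher in TubA10 (711 against 579 FPKM, 0.30), as were Rps27l (0.23), Rplp1 (0.20), Rpl22 (0.13) and Rpl5 (0.10), of which the last 2 were lower than in GV with the median change set to 0.

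Set against MII, TubA10 was slightly higher and TubA20 lower in most members. These comparisons may differ in meiotic stage as well as in drug. In TubA10 none of the 101 genes was more than 2-fold lower than in MII and 1 was more than 2-fold higher, against 0.128% and 0.515% of all genes and 0.193% lower at 10 FPKM or more. That gene was Rpl27 of the 60S subunit (374 FPKM in TubA10, 185 in MII, 471 in GV and 122 in TubA20, log2 change 1.01), named after its value was seen, and it was no longer past 2-fold under 3 of 4 scalings. Of the core genes 66 of 78 were higher in TubA10 than in MII, with a median of 0.30. The same held for 8107 of all 21957 genes and for 2848 of the 5689 at 10 FPKM or more. In TubA20, 15 genes were more than 2-fold lower than in MII and none more than 2-fold higher, against 2.44% and 0.328% of all genes and 6.03% lower at 10 FPKM or more. Of the core genes 65 of 78 were lower in TubA20 than in MII, with medians of −0.74 for the 40S and −0.59 for the 60S genes. Among all 21957 genes 8335 were lower, and 2306 of the 5620 at 10 FPKM or more. The count of 15 was 24 to 28 when FPKM sums, upper quartiles or Gapdh were made equal.

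Rps13 (91.7 FPKM in TubA20 against 222 in MII, −1.27), Rpsa, the laminin receptor precursor (14.3 against 35.1, −1.23), Rpl31 (139 against 314, −1.17), Rpl6 (−1.17) and Rps27 (80.0 against 179, −1.16) were the lowest in TubA20 relative to MII. Rps27l (1355 against 790 FPKM, 0.78), Rps15a (564 against 359, 0.65), Rps28 (363 against 252, 0.52) and Rpl41 (1573 against 1167, 0.43) were among the 5 highest, of which 4 were 40S genes. Between the 2 treated libraries, 37 of the 101 genes were more than 2-fold lower in TubA20 than in TubA10 and none more than 2-fold higher, against 5.52% and 0.66% of all genes and 14.3% lower at 10 FPKM or more. The core medians were −1.02 for the 40S (16 of 32 past 2-fold) and −0.87 for the 60S genes (16 of 46). Rps13 had the largest difference (403 FPKM in TubA10 and 91.7 in TubA20, −2.12). The comparisons with MII share the MII library and those with GV share the GV library, so their values are given side by side only.

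Members that sit together in the ribosome did not always move together. The P stalk of the 60S subunit, which recruits elongation factors, is built from Rplp0 and dimers of Rplp1 and Rplp2. Rplp0 had 435 FPKM in GV, 86.7 in MII, 108 in TubA10 and 93.2 in TubA20 (−2.21 in TubA20 against GV). Rplp1 had 980, 828, 1127 and 948 FPKM (−0.05) and Rplp2 had 1509, 1322, 1373 and 1464 FPKM (−0.04). Rplp1 and Rplp2 were thus within 2-fold of GV in every library and Rplp0 was more than 2-fold lower in every cultured library, a difference between genes of the same libraries that no scaling alters. The sign of the 2 small changes in TubA20 turned with Gapdh made equal (0.02 and 0.03).

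Rpl5 and Rpl11 enter the 60S subunit together with the 5S rRNA, and outside the ribosome they bind the p53 regulator MDM2. Rpl5 had 550 FPKM in GV, 360 in MII, 590 in TubA10 and 237 in TubA20 (−1.21 in TubA20). Rpl11 had 562, 436, 550 and 317 FPKM (−0.83). For both genes GV and TubA10 were high and TubA20 was low, with MII between. The assembly partners Rrs1 (6.53 FPKM in GV, 11.4 in MII, 8.82 in TubA10 and 13.5 in TubA20) and Rpf2 (45.1, 31.0, 30.8 and 42.1) did not share this order.

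Rps27a and Fau are made as fusions to ubiquitin and to a ubiquitin-like protein. Fau had 1531 FPKM in GV, 560 in MII, 608 in TubA10 and 440 in TubA20 (−1.80), against the larger difference of Rps27a (−3.84). Both fusion genes were thus lower in the cultured libraries and differed in size. Of the X-linked genes, Rpl36a (−3.27), Rpl39 (−3.41) and Rps4x (810 FPKM in GV, 150 in MII, 192 in TubA10 and 70.2 in TubA20, −3.51) were far below GV. Rpl10, a 60S protein that joins late in assembly, had 351, 244, 327 and 178 FPKM (−0.97).

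**Figure D3:**
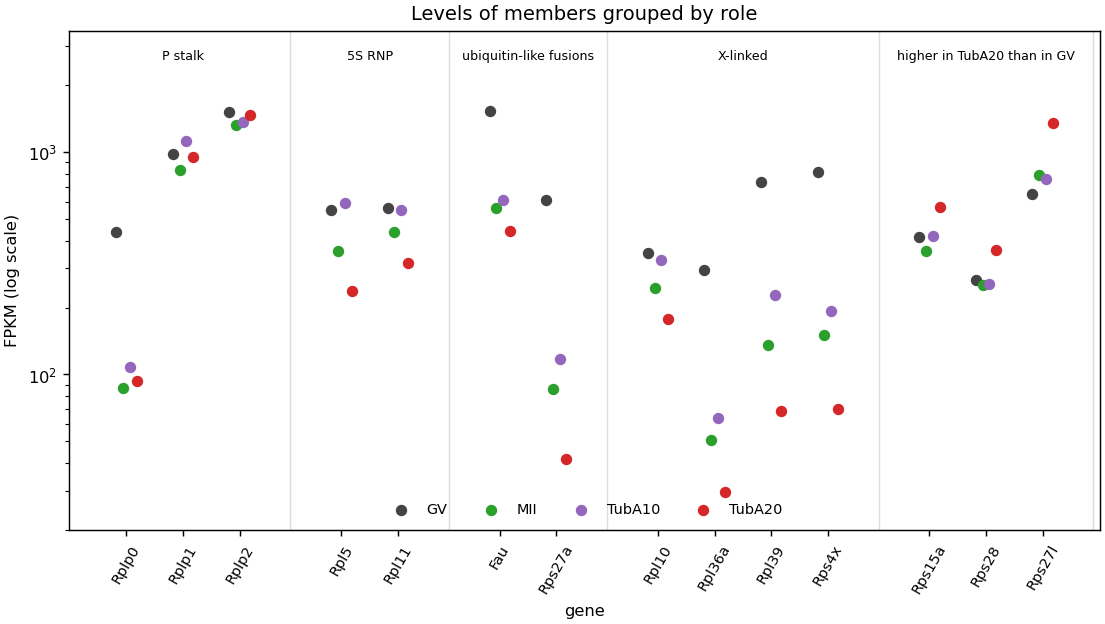
FPKM on a log scale of 14 members grouped by role, with 1 point for each of the 4 libraries. Rplp1 and Rplp2 stay between 828 and 1509 FPKM while Rplp0 lies at 435 FPKM in GV and at 86.7 to 108 FPKM elsewhere, and Rps27l is highest in TubA20 (1355 FPKM).

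The paralog Rps27l and its parent Rps27 differed in direction. Both code for a 40S protein with a zinc finger, and Rps27l is known as a target of p53. Rps27l lies on chr9:66946086-66949516 (plus strand, 4 exons) and Rps27 on chr3:90212522-90213651 (minus strand, 4 exons) of GRCm38. Their coding sequences, from GENCODE transcripts and printed because the result turns on telling the pair apart, are both 255 bases long and align without gaps. They differ at 61 bases (capitals in Rps27l), are 76.1% identical and share no identical stretch over 11 bases, so a fragment from the coding part can be told apart by sequence.
Rps27: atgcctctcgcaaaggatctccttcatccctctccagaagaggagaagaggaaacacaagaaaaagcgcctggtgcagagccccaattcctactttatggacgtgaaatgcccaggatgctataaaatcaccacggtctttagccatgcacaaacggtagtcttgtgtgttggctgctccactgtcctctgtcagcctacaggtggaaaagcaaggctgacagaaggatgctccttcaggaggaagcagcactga
Rps27l: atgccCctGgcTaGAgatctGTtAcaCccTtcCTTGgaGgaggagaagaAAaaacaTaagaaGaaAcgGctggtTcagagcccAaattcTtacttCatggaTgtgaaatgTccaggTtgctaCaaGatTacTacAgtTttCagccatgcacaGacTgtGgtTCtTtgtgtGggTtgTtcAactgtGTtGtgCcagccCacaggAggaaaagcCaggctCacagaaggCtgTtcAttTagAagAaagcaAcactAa

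Rps27l had 650 FPKM in GV, 790 in MII, 761 in TubA10 and 1355 in TubA20 (1.06 in TubA20 against GV). Rps27 had 776, 179, 190 and 80.0 FPKM (−3.26). Rps27l was 45.6% of the pair in GV, 81.5% in MII, 80.0% in TubA10 and 94.4% in TubA20, so it went from the lower to the higher member in every cultured library. The sum of the pair was 1426 FPKM in GV, 969 in MII, 951 in TubA10 and 1435 in TubA20, nearly equal in GV and TubA20 as deposited. With the median change set to 0, TubA20 is 0.23 log2 lower relative to GV, so this near equality rests on the scaling. The change of Rps27l in TubA20 was 0.83 to 1.13 over the 4 scalings and passed 2-fold in all but the one with the median change set to 0. Rps27rt, an intronless copy on chr9, has a coding sequence identical to that of Rps27 over all 255 bases. Its values of 9.21 FPKM in GV, 2.74 in MII, 3.30 in TubA10 and 0.949 in TubA20 may hold reads of Rps27 and are uncertain.

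The other pairs split in several ways. Rpl22, an RNA-binding 60S protein, had 165 FPKM in GV, 148 in MII, 181 in TubA10 and 132 in TubA20 (−0.33 in TubA20), and its paralog Rpl22l1, whose splicing and level Rpl22 is known to restrain, had 59.1, 17.8, 24.2 and 9.63 FPKM (−2.50). Rpl22l1 was thus 26.3% of the pair in GV and 6.82% in TubA20, the reverse of the Rps27 pair, in which the parent was the one that was lower. The 2 coding sequences are 68.7% identical.

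Rpl39, an X-linked protein of the nascent chain tunnel, had 737 FPKM in GV, 136 in MII, 227 in TubA10 and 68.5 in TubA20 (−3.41). Rpl39l, an autosomal paralog best known from male germ cells, had 156, 48.1, 72.1 and 25.4 FPKM (−2.58). Rpl39l was 17.5% of the pair in GV and 24.1% to 27.1% in the cultured libraries. The coding sequences of 156 bases, shown because they bear on how fragments of this short pair are assigned, differ at 23 bases (capitals in Rpl39l) and share a stretch of 38 identical bases.
Rpl39: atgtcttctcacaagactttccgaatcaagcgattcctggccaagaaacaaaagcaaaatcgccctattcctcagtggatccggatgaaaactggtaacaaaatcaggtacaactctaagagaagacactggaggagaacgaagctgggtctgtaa
Rpl39l: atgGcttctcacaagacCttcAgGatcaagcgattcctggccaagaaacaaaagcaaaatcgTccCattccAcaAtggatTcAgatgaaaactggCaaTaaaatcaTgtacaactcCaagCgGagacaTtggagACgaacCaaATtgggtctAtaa

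Rpl36a, X-linked, had 294 FPKM in GV, 50.6 in MII, 64.0 in TubA10 and 29.5 in TubA20, and its autosomal copy Rpl36al had 393, 49.5, 63.8 and 28.9 FPKM. Both were far lower after culture, and the copy went from 57.2% of the pair in GV to between 49.4% and 50.0% elsewhere. Their coding sequences are 87.9% identical. Rpl7 had 402, 85.5, 114 and 42.3 FPKM and Rpl7l1, a nucleolar relative of it, 14.1, 6.59, 10.1 and 2.45 FPKM. Rpl10l, an autosomal paralog of Rpl10 used in male meiosis, was at 3.28, 1.41, 1.25 and 0.826 FPKM, under 1% of the pair in all 4 libraries. Rpl6l is annotated as a processed pseudogene on chr10 and was at 4.47, 1.41, 1.29 and 1.48 FPKM, and Rpl3l, the paralog of striated muscle, was listed at 0 in all 4. Over the 9 paralogs 7 were more than 2-fold lower and 1 higher in TubA20 than in GV, against 11.7% and 7.61% of all genes. Of the 6283 genes that reached 10 FPKM, 1739 were lower and 1428 higher by this measure.

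**Figure D4:**
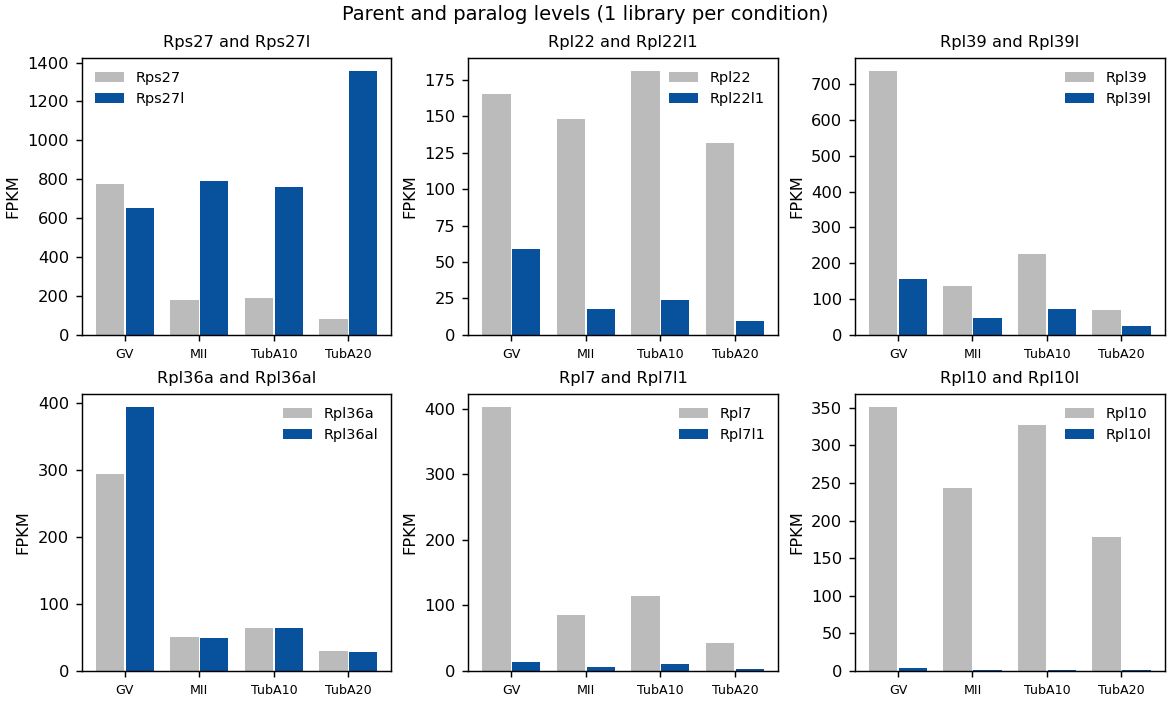
FPKM of 6 parent genes (grey bars) and their paralogs (blue bars) in the 4 libraries, with a separate linear axis from 0 for each pair. Rps27l exceeds Rps27 in the 3 cultured libraries (1355 against 80.0 FPKM in TubA20), Rpl22l1 stands below Rpl22 in all 4, and Rpl36a and Rpl36al are nearly level after culture.

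The 14 entries with a -ps symbol added up to 5.09 FPKM in GV, 1.69 in MII, 1.01 in TubA10 and 1.61 in TubA20, and the highest single value was 2.48 FPKM (Rpl23a-ps3 in GV). Between 3 and 7 of them were above 0 in a library. Many core genes also have near-identical processed copies elsewhere in the genome. A BLAST search of the coding sequences against GENCODE processed pseudogenes found copies with at least 95% identity over at least 80% of the length for 74 of the 78 core genes, and more than 10 copies for 16. The authors ran Cufflinks with its defaults apart from the strand option, and by default it divides a fragment evenly over the places it maps to. How many places the aligner was allowed to report is not given in the sources used here. In TubA20 against GV the median log2 change was −2.34 for the 16 core genes with more than 10 copies, −2.47 for the 58 with 1 to 10 and −2.03 for the 4 with none, among them Rps3, Rpl8 and Rplp2. The number past 2-fold lower was 13 of 16, 48 of 58 and 3 of 4 (11.7% of all genes).

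Other features were described over the 78 core genes, which share the same 4 libraries, so no p-value is given. The log2 change in TubA20 against GV had a Pearson r of 0.05 with log2 FPKM in GV, of −0.09 with coding length and of 0.17 with the length of the 3′ UTR (Spearman rho of −0.02, −0.10 and 0.17). The median coding length was 396 bases for the 14 genes that were not more than 2-fold lower and 471 for the 64 that were.

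Windows of 30 bases before and 30 after the annotated start, from the RefSeq promoter table (GRCm38.p6), are shown for the 2 core genes lowest and the 2 highest in TubA20 relative to GV for which the table has an entry, to show members at both ends of the order. Capitals mark CTTTC, the same run ending in T (CTTTT), or the run with 2 central T and 2 final C (CTTCC), searched on the transcribed strand within 15 bases of the start. They lie at chr11:98026680-98026739 (plus strand, Rpl19), chr5:121204471-121204530 (plus strand, Rpl6), chr17:33824533-33824592 (minus strand, Rps28) and chr7:118116118-118116177 (minus strand, Rps15a).
Rpl19: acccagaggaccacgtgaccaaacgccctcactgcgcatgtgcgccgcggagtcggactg
Rpl6: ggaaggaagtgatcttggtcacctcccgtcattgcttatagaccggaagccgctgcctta
Rps28: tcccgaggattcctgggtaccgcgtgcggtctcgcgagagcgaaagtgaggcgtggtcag
Rps15a: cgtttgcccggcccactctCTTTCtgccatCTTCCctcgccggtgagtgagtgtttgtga

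These letters were found in Rps15a alone among the 4. Over the 58 core genes with an entry, 27 (46.6%) held them, against 15.1% of all 27025 genes with an entry and 16.9% of the 5117 that reached 10 FPKM in any library. They were in 5 of 10 genes that were not more than 2-fold lower in TubA20 and in 22 of 48 (45.8%) that were. The annotated start can lie some bases from the one used in oocytes, so absence of the letters says only that this window lacks them.

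Letters of the cytoplasmic polyadenylation element, through which stored oocyte mRNAs are known to gain poly(A), were searched as TTTTAT, with either T or A as the last letter (TTTTAA in the latter case), on the transcribed strand in the last 100 bases of the annotated 3′ UTR. This search was added after the values were seen. Of the 78 core genes 13 (16.7%) held a match, against 26.3% of 20219 genes with a 3′ UTR and 31.9% of 6253 that also reached 10 FPKM. Many core genes have a 3′ UTR shorter than the window of 100 bases. Its median was 62 bases in the 14 genes not more than 2-fold lower in TubA20 and 68.5 in the other 64. A shorter window holds fewer places for a match, and these shares were not corrected for length. In MII against GV, 5 of the 14 core genes that were not more than 2-fold lower and 8 of the 64 that were (12.5%) held a match. In TubA20 against GV the numbers were 3 of 14 and 10 of 64 (15.6%). The sites of the 5 genes and of Rps27l are shown with the match in capitals. In Rps15a and Rps27l the letters lie 4 and 6 bases from the annotated end, after a polyadenylation signal, and a TTTTAA match can overlap such a signal. The annotated 3′ UTR of the Rps15a transcript is 4728 bases long, so its end may lie far from the one used in oocytes.
Rpl32: cttgtgtgcatgTTTTATgtttaaataaaa
Rpl34: atatgcacattTTTTAAgtaataaaaatca
Rpl5: attaactgaactTTTTAAtaaatgagtcat
Rps2: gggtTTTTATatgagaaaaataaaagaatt
Rps15a: tgaataaaataaagcattttTTTTAAaacc
Rps27l: gtcagtttttcaataaagTTTTAAttatgg

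Other mRNAs with a 5′ TOP motif were split. Of 18 such genes, 8 were more than 2-fold lower and none more than 2-fold higher in TubA20 than in GV, with a median of −0.56 and a range from −3.79 to 0.88. The shares among all genes were 11.7% lower and 7.61% higher, and 27.7% of genes that reached 10 FPKM were lower. Of these 6283 genes at 10 FPKM, 1428 were more than 2-fold higher. Eef1d, a subunit of the elongation factor that recharges eEF1A, had 865 FPKM in GV, 137 in MII, 173 in TubA10 and 61.7 in TubA20 (−3.79). Eef1a1 (−3.06), Naca (−2.94), Eif3h (−2.83) and Eef2 (−2.59) were also past 2-fold lower. Rack1, a protein of the 40S head, had 171, 159, 194 and 266 FPKM (0.63), and Npm1 (0.86) and Tpt1 (0.88) were higher in TubA20 as well. Of 12 genes that control TOP mRNA translation, 2 were more than 2-fold lower and 1 higher, with a median of −0.05, and these counts lie near the shares of all genes (11.7% and 7.61%). Rheb, the GTPase that activates mTORC1, had 64.6, 140, 112 and 172 FPKM (1.40), and Eif4ebp3, a 4E-binding protein, had 11.3, 3.97, 1.32 and 0.906 FPKM (−2.68). Of 8 chaperones and 5S assembly factors, 2 were more than 2-fold lower, with a median of −0.25, and this count lies near the 27.7% of genes that reached 10 FPKM. Pdcd2, a chaperone of Rps2, had 65.0, 20.7, 34.8 and 4.85 FPKM (−3.50).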

How the data were processed

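RNA was sequenced from 4 libraries of mouse oocytes (GV, MII, TubA10, TubA20), 1 per condition. The authors selected poly(A) RNA, aligned reads with STAR 2.5.0 to mm10 and deposited FPKM values from Cufflinks (Cuffdiff 2.2.1 is also named in their processing notes), already divided by transcript length and mapped fragments. Of 21959 entries, 21794 were given a symbol by Ensembl identifier, and entries sharing a symbol were added up. The members and lists were chosen with earlier results of these data known. Changes are log2 ratios of FPKM + 1, which understate the change of low genes, and no p-value is given. Members named one by one were those the paper names, each paralog with its parent, the 5 largest falls and the 5 largest rises or smallest falls among members with at least 10 FPKM (MII, TubA10 and TubA20 against GV, TubA20 against MII), core genes higher in TubA20 than in GV, members with a set role (stalk, 5S partners, fusions, X-linked) and those nearest 2-fold. Others were chosen after their values were seen, and some genes that the rule or the lists hold are counted but not reported here by name. Gene models came from GENCODE vM21 and start windows from RefSeq, both on GRCm38. Alternatives were other pseudocounts (0.1 and 0.01), a minimum of 1 or of 5 FPKM in one library, 4 scalings (median change of 0, equal sums, equal upper quartiles, equal Gapdh), the highest entry per symbol, core genes only, a 3-fold threshold and a ratio of medians. Labels and methods differ on RNA extraction (TRIzol or PicoPure). The scripts used BLAST 2.17.0, Biopython 1.88, matplotlib 3.10.9, scipy 1.17.1, pandas 2.3.3 and numpy 2.4.6 under Python 3.11.15 and were tested on simulated data.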

Additional observations from a re-analysis of the deposited data

How the results depend on the processing

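No paired analysis was possible because each condition had 1 library. The counts of members more than 2-fold lower than GV in MII, TubA10 and TubA20 (70, 67 and 72) kept within 1.5 times under every alternative but one, the 3-fold threshold, which left 41 in TubA10. A 3-fold threshold also left 0 of 15 lower in TubA20 than in MII, 5 of 37 lower in TubA20 than in TubA10, and no member higher in TubA20 than in GV or in TubA10 than in MII. The 15 members lower in TubA20 than in MII became 23 with a pseudocount of 0.01, 26 with equal FPKM sums, 24 with equal upper quartiles and 28 with equal Gapdh. Pseudocounts of 0.1 and 0.01 added members near 0. More than 2-fold higher were then 4 and 4 in MII, 1 and 2 in TubA10 and 3 and 3 in TubA20 against GV, 3 and 4 in TubA10 and 2 and 2 in TubA20 against MII, and 2 and 2 in TubA20 against TubA10, while 6 and 6 were lower in TubA10 than in MII. The single member higher in TubA20 than in GV, Rps27l, was lost (0) when the median change was 0. With core genes only the count was also 0, but that setting leaves out Rps27l by definition, as a paralog. The single one higher in TubA10 than in MII was lost (0) with the median change set to 0, equal sums and equal upper quartiles. Over core genes the share of FPKM was 7.85% in GV, 3.04% in MII, 3.70% in TubA10 and 2.41% in TubA20, and the ratio of 60S to 40S sums 1.34, 1.68, 1.72 and 1.80. The ratio of the medians over all members, -ps entries included, was 0.602, 0.654, 0.725 and 0.558. Over core genes the ratio of the medians was 0.858 in GV, 0.947 in MII, 1.01 in TubA10 and 1.11 in TubA20. TubA20 was thus the lowest library by the first of these ratios and the highest by the second. No named member past 2-fold turned its direction under these alternatives. With 1 library per condition and no counts, the size of chance differences is unknown, most so for members of a few FPKM (Rpl6l, Rpl10l, Rps27rt and the -ps entries).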
